A study of Mus musculus with 7 samples.

Results

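The cells described here are naive DNT cells, T cells of the spleen that are double-negative for CD4 and CD8, in which transcripts of Slamf7, Rgs16, Eomes, Krt18 and Kcnc1 were found together. A cell was a member (rule-positive) when at least 1 unique molecular identifier (UMI, a tag that marks 1 captured transcript) was counted for 2 or more of these 5 genes, in a barcode with at least 200 genes, at most 10% mitochondrial UMIs, no Cd79a UMI and at most 1 Lyz2 UMI. Of 10497 naive DNT cells kept by those filters, 1066 met the rule: 412 of 3972 cells in replicate 1 (10.4%, exact 95% interval 9.44% to 11.4%) and 654 of 6525 cells in replicate 2 (10.0%, 9.30% to 10.8%). They were set against the other 3560 and 5871 kept cells of the same libraries. The name fitted them in part: a Slamf7 UMI was seen in 82.5% and 79.7% of members of replicates 1 and 2, an Eomes UMI in 81.1% and 82.1%, and a Rgs16 UMI in 31.8% and 48.5%. A CD3 UMI was found in 100% and 99.8% of members.

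The series holds 7 single-cell RNA libraries of spleen T cells from C57BL/6 mice, all male and 8 weeks old. The 10x Chromium 3′ kits used read the end of polyadenylated transcripts. Every sort took CD3+ NK1.1- TCRαβ+ TCRγδ- cells. The 2 naive DNT libraries were also sorted as CD4- CD8-, and cells that bound tetramers of αGal-CD1d or LPC-CD1d, which stain NKT cells, were gated out. The 2 activated DNT libraries came from naive DNT cells cultured for 3 days with 20 ng/ml IL-2 under stimulation through CD3 and CD28. The undivided TCRαβ+ sort (TCRab), the CD4 T cells and the CD8 T cells make up the other 3 libraries. No genotype or transgene is given for any mouse, and nothing in the labels says how many mice went into a library. Replicate 1 of both DNT groups and the 3 single libraries used kit v2, and replicate 2 of both DNT groups used kit v3, so replicate and kit cannot be told apart.

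DNT cells are a small share of the TCRαβ+ T cells of the normal spleen and are known for suppressing other lymphocytes in mouse models of transplantation and autoimmunity. Eomes is a T-box transcription factor of effector and memory CD8 T cells and NK cells, and Slamf7 is a SLAM family receptor of activated lymphocytes. Rgs16 speeds the shutdown of G protein signals, Krt18 is an epithelial keratin, and Kcnc1 encodes a voltage-gated potassium channel known for the type l current of the double-negative T cells of lpr mice.

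Kept cells numbered 1530 to 6525 per library, with 16973908 to 52153580 UMIs in all and medians of 3987 to 15809 UMIs per cell. In the naive libraries, members and other cells had medians of 3971.5 and 4132.5 UMIs in replicate 1 and 8313.5 and 7513 UMIs in replicate 2. Members above the 95th percentile of their library's UMIs made up 13.6% and 14.98% of all members, a larger share than among all kept cells. Doublets were not called. Pairs of libraries shared 0 to 36 barcodes before filtering, of which 0 were rule-positive in both. Barcodes with a Cd79a UMI, the B cell receptor component, were left out and served as a gauge of free RNA and of mixed droplets. In the 16 and 178 such barcodes of the naive libraries (medians of 3624.5 and 6404 UMIs), Slamf7 was seen in 12.5% and 16.3%, Eomes in 6.25% and 7.87% and Kcnc1 in 6.25% and 4.49%. The shares in other naive cells were 5.22% and 10.03% for Slamf7, 9.27% and 11.04% for Eomes and 2.33% and 6.15% for Kcnc1. Slamf7 in both replicates and Kcnc1 in replicate 1 lay at or below the gauge, while Eomes in both and Kcnc1 in replicate 2 lay above it. Rgs16 was seen in 0% and 2.25% of the Cd79a barcodes, against 0.815% and 2.45% of other naive cells. For Krt18 the shares were 0% and 0.562% (1 UMI in replicate 2), against 0.674% and 0.102%, so replicate 2 lay below the gauge. The part of free RNA in these shares was not tested. The gauge is coarse in replicate 1, where 2 of 16 barcodes with a Slamf7 UMI have an exact interval of 1.55% to 38.3%.

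The 5 genes of the rule chose the cells, so their levels are given as a description, in CPM (the UMIs of a gene summed over cells and scaled to a common library total). Slamf7 (chr1:171632403-171653035, GRCm38) stood at 426 and 287 CPM in members, against 14.5 and 15.6 CPM in other cells. Eomes (chr9:118478212-118486132) stood at 346 and 338 CPM in members, against 26.9 and 19.3 CPM in other cells. Rgs16 (chr1:153740349-153745468) stood at 159 and 258 CPM in members, against 2.26 and 4.33 CPM in other cells. Krt18 differed most between the replicates among the 5 genes. It (chr15:102028180-102032027) had 282 and 100.1 CPM in members, against 1.60 and 0.131 CPM in other cells, and Kcnc1 (chr7:46396497-46438704) had 142 and 122 CPM in members, against 6.25 and 11.4 CPM in other cells. Krt18 was the sparsest, with a UMI in 29.9% and 15.1% of members. Its usual partner keratin, Krt8, was nearly absent, at 5.97 and 0.326 CPM in members and 0 UMIs in other cells of both libraries.

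Each rule gene was also looked at in cells picked by the remaining 4, again as a description. Slamf7 was found in 73.03% and 67.2% of cells with 2 or more of the other 4 genes, against 6.01% and 12.5% of cells with 0 of them. For Eomes the shares were 70.5% and 71.3%, against 10.2% and 13.6%. For Kcnc1 they were 38.03% and 43.7%, against 2.77% and 8.05%. Slamf7 with Eomes and no other rule gene was the most frequent pattern among members, in 99 and 160 cells. Kcnc1 joined that pair in 50 and 51 cells, and all 5 genes were found together in 12 and 51 cells.

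Members were concentrated in the DNT libraries. Beside the 10.4% and 10.0% of naive DNT cells, the same rule picked 29 of 4266 TCRab cells (0.680%), 9 of 5008 CD4 cells (0.180%) and 81 of 4644 CD8 cells (1.74%). With every cell thinned to 1500 UMIs, the shares were 4.96% and 3.05% in naive DNT cells, 0.189% in TCRab, 0.0603% in CD4 and 0.216% in CD8. Thinning left out cells under 1500 UMIs and kept 3931 and 6449 naive cells and 4232, 4975 and 4634 cells of TCRab, CD4 and CD8. The exact 95% intervals of the naive libraries, 4.30% to 5.69% and 2.65% to 3.50%, lay above those of the 3 single libraries. These intervals cover counting error only, and 2 libraries against 1 allow no test between the sorts. Activated DNT cells met the rule in 39.3% and 34.1% of cells at full depth and in 2.91% and 6.39% after thinning. Rgs16 carried much of that: counted without Rgs16 and thinned, the share was 0.391% and 0.962% in activated cells, against 4.25% and 2.34% in naive cells. Rgs16 itself was seen in 68.9% and 52.8% of activated cells at full depth.

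**Figure D1:**
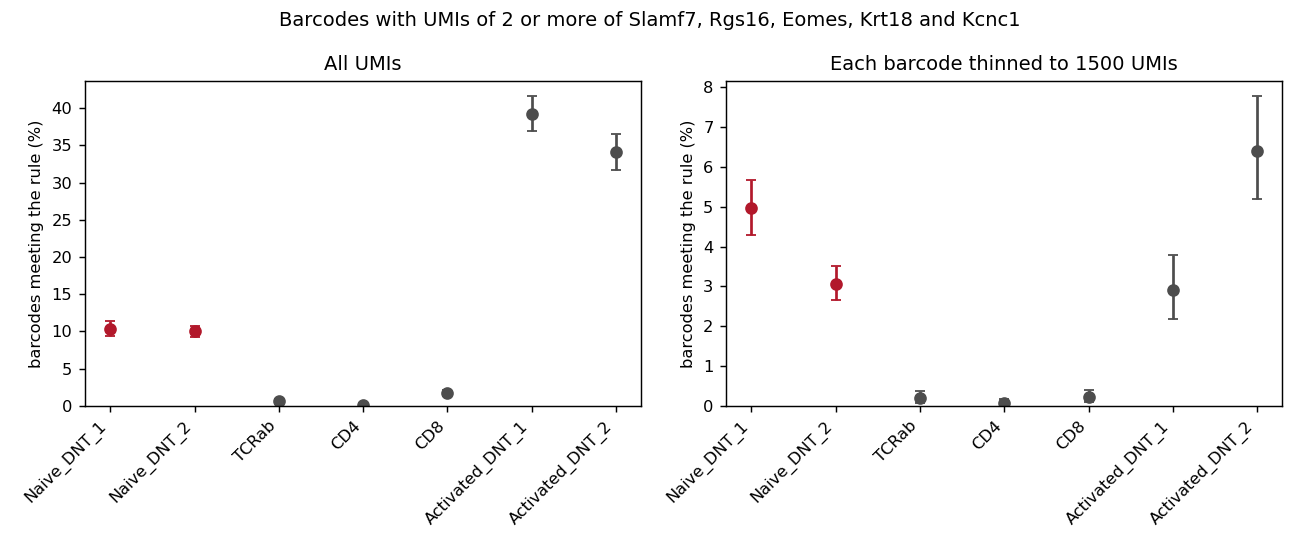
Percent of kept cells that met the rule in each of the 7 libraries, at full depth and with every cell thinned to 1500 UMIs, with exact 95% intervals for counting error. Naive DNT cells stand at 10.4% and 10.0% at full depth and at 4.96% and 3.05% after thinning, and CD8, CD4 and TCRab stay under 2% in both.

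Members were also compared with other naive cells over all genes outside the rule. In a test of UMIs summed per library and class with the library as a block (edgeR quasi-likelihood test, Benjamini-Hochberg adjusted p under 0.05, the 5 rule genes left out), 677 of 10871 genes were higher in members (6.23%) and 435 were lower (4%), 10.2% in either direction. Of these, 674 and 435 had the same direction in both libraries, and 384 and 121 changed at least 2-fold. The rule genes were themselves picked with these cells known, so a p-value here says how alike the 2 libraries were, not whether such a group of cells exists. Without the block 0 genes passed (506 at an unadjusted p under 0.05), and DESeq2 called 356 higher and 143 lower. Nothing in the labels says how the mice of the 2 libraries relate beyond calling them biological replicates.

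The largest rises were in genes with very low levels in other naive cells. Rgs6, a regulator of G protein signalling like Rgs16, had 52 and 127 UMIs in members (28.2 and 20.7 CPM), against 8 and 2 UMIs in the far more numerous other cells (0.532 and 0.0438 CPM; log2 fold change 6.86 ± 0.52 SE, adjusted p = 8.73e-05). Tubb2b, a beta tubulin known from neurons, had 169 and 80.3 CPM in members, against 6.05 and 1.55 CPM (log2 fold change 5.12 ± 0.23, adjusted p = 4.04e-06). A Tubb2b UMI was present in 37.6% and 28.3% of members, against 2.13% and 1.11% of other cells. Pou2af1, the coactivator of octamer-binding factors known from B cells, had 178 and 67.2 CPM in members, against 11.1 and 3.35 CPM (log2 fold change 4.04 ± 0.15, adjusted p = 1.93e-10). In all 3 genes both member values lay above both values of other cells.

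Several of the 15 genes with the largest rises encode surface molecules, grouped here only for description. Epcam, an epithelial adhesion molecule, had 140.1 and 96.7 CPM in members, against 12.8 and 10.9 CPM in other cells (log2 fold change 3.16 ± 0.14, adjusted p = 4.40e-10). Alcam, the ligand of CD6, had 41.8 and 33.5 CPM, against 1.20 and 1.03 CPM (log2 fold change 4.94), and the integrin subunit Itgad had 29.3 and 25.9 CPM, against 2.46 and 0.963 CPM (log2 fold change 4.11). The tetraspanin Tspan3 was the most abundant of them, at 255 and 109.9 CPM in members, against 19.03 and 12.5 CPM in other cells, and had a UMI in 52.9% and 37.9% of members. The log2 fold change of Tspan3 was 3.30 ± 0.14. Both replicates of each of these genes were at least 8-fold above other cells.

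Signalling genes and enzymes made up the rest of the 15. Spry1, an inhibitor of the Ras and ERK pathway, rose with a log2 fold change of 3.99 ± 0.18, the interleukin-10 receptor chain Il10ra with 3.13 ± 0.19 and the kinase gene Rps6ka5 with 2.83 ± 0.17. Fst, the secreted activin antagonist follistatin, had 24.98 and 28.5 CPM in members, against 2.20 and 2.82 CPM. Ddc, the decarboxylase that makes dopamine and serotonin, had 119 and 56.8 CPM in members, against 10.8 and 7.11 CPM (log2 fold change 3.09). The coinhibitory receptors Ctla4 and Lag3 are given with their list. Chosen after its values were seen, Ptprk, a receptor tyrosine phosphatase, had 113 and 103 CPM in members, against 3.79 and 0.678 CPM in other cells. It did not pass (log2 fold change 5.92 ± 1.08, adjusted p = 0.312), and its ratio differed widely between the libraries.

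Declines were smaller and were deeper in replicate 1. The nuclear receptor Rora had 5.43 and 50.6 CPM in members, against 20.2 and 118 CPM in other cells (log2 fold change -1.45 ± 0.17, adjusted p = 3.01e-05). Tmem176b, a membrane protein of the type 17 list, had 9.77 and 30.3 CPM in members, against 41.5 and 70.4 CPM (log2 fold change -1.57). Lmo4, a LIM-domain transcriptional adaptor, had 32.04 and 102 CPM, against 81.7 and 207 CPM (log2 fold change -1.26). Members were lower in both libraries for each. The other 7 of the 10 largest declines were Pxdc1 (-1.69), the actin crosslinker Actn2 (-1.57), Lysmd2 (-1.46), Ssbp2 (-1.38), the inhibitory Ly49 receptor gene Klra1 (-1.23), the Csk-binding adaptor Pag1 (-1.19) and the calcitonin gene-related peptide coreceptor Ramp1 (-1.16), each as a log2 fold change.

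**Figure D2:**
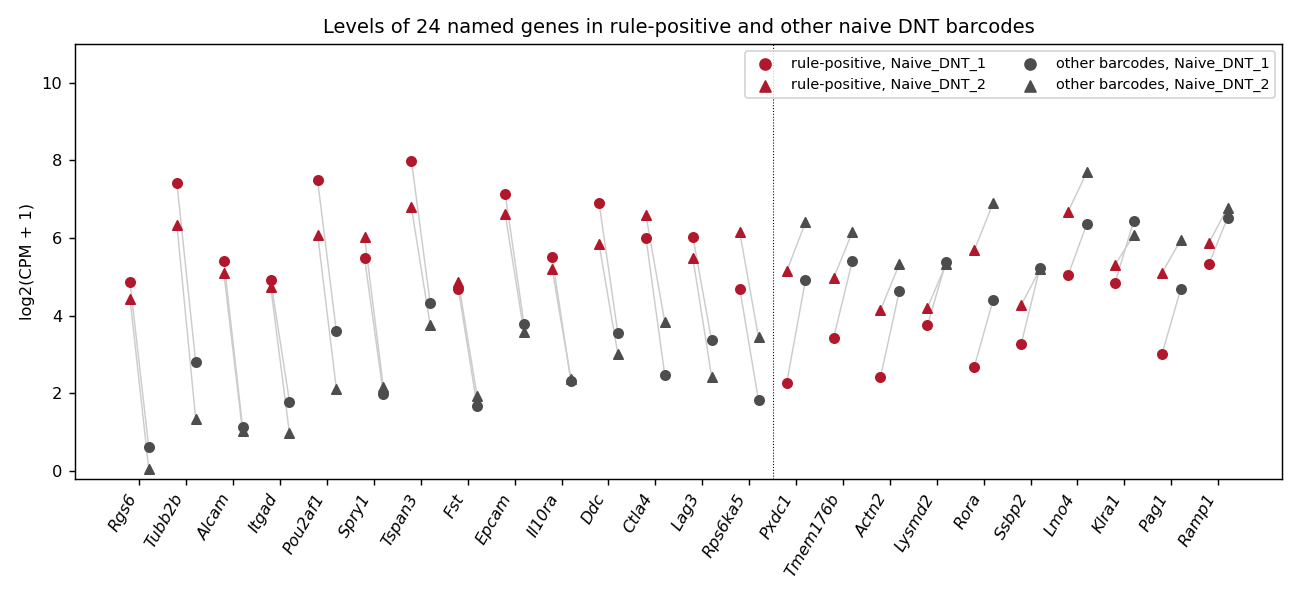
CPM of 14 of the 15 genes with the largest rises and the 10 with the largest declines, in members and other cells of naive DNT replicates 1 and 2 (circles and triangles), as log2(CPM + 1) on the vertical axis. Member points, drawn left of other cells, lie above those of both replicates for the risen genes, as for Tubb2b at 169 and 80.3 CPM against 6.05 and 1.55 CPM, and the declines are narrower.

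Because Eomes is a T-box factor, the promoters of the rule genes and of the 15 risen genes were searched for the T-box site core GGTGTG on both strands (CACACC on the other). The windows ran from 250 bases before to 50 after the RefSeq start on GRCm38.p6, and 14 of the 20 genes had one. The core was present in 3 of the 14 and in 6257 of all 32851 promoters (19.0%). The octamer ATGCAAAT (ATTTGCAT on the other strand), the site bound with Pou2af1, was in 0 of the 14 and in 570 of all 32851 (1.74%). A match of letters is a description and not a binding site. The 3 promoters that hold the core are shown 5′ to 3′ on the plus strand, with it in capitals: 240 bases before the start in Kcnc1 (chr7:46396218-46396517), 23 after it in Rgs6 (chr12:82617249-82617548, which uses a start inside the longer annotated gene) and 17 before it in Epcam (chr17:87635729-87636028).
Kcnc1: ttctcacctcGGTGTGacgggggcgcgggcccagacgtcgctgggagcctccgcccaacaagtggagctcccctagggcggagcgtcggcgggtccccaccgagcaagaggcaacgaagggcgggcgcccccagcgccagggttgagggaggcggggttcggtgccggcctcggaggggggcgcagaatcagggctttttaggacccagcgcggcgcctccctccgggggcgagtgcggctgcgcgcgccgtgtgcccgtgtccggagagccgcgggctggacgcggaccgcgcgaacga
Rgs6: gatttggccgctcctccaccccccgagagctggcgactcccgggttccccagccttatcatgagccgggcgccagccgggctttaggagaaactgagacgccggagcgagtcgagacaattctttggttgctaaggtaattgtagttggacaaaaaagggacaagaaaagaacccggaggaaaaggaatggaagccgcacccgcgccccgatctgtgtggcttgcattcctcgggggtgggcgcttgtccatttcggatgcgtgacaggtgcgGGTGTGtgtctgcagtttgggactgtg
Epcam: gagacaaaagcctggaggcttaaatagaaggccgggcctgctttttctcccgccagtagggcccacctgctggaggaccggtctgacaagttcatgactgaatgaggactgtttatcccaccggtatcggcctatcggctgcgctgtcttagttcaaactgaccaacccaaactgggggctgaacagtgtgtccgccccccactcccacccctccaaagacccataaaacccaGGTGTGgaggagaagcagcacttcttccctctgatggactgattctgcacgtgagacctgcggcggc

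Coinhibitory receptors moved in both directions. Of 14 tested, 5 rose and 2 fell, with a median log2 fold change of 0.27 beside -0.03 over all 10871 genes. Over all these genes 6.23% rose and 4% fell, the base shares for this and each list that follows. Ctla4, the inhibitory competitor of CD28, had 63.5 and 95.4 CPM in members, against 4.59 and 13.4 CPM in other cells (log2 fold change 3.05 ± 0.20, adjusted p = 5.36e-06). Lag3, a receptor for MHC class II, had 64.6 and 43.95 CPM in members, against 9.31 and 4.40 CPM (log2 fold change 2.97 ± 0.17, adjusted p = 2.74e-08), and Cd200 rose by a log2 fold change of 2.65. Pdcd1 (0.87) and the ecto-nucleotidase gene Nt5e (0.56) rose less, and Cd96 (-0.82) and Vsir (-0.74) fell. Without replicate 1 the list median was 0.53, and without replicate 2 it was 0.64, over 11 genes each. With cells thinned to 1500 UMIs, 3 of 10 rose and 3 fell, and the median was -0.28. DESeq2 called 3 of the 14 higher and 2 lower. Among 13 costimulatory and activation receptors, Tnfrsf9 (4-1BB) rose (65.2 and 38.1 CPM in members, against 13.3 and 10.9 CPM) while Cd40lg and Il2ra fell (list median -0.11). The early activation marker Cd69 stood at 293 and 526 CPM in members and 310.2 and 563 CPM in other cells, with a log2 fold change of -0.22 that did not pass.

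Immediate early and antigen receptor signal genes rose more often than they fell: 10 of 24 rose and 3 fell, with a median log2 fold change of 0.32. Nr4a2, an orphan nuclear receptor induced by receptor signals, had 151 and 189.6 CPM in members, against 37.9 and 54.5 CPM in other cells (log2 fold change 1.77 ± 0.10, adjusted p = 1.39e-08). Egr2, a transcription factor tied to anergy, had 29.9 and 11.1 CPM, against 2.53 and 2.38 CPM (log2 fold change 2.67). Fosb (0.98), Fos (0.55), Jun (0.34), Jund (0.30), Dusp1 (0.46), Dusp2 (0.40) and Dusp6 (1.10) rose beside Spry1, and Fosl2, Dusp5 and Zfp36 fell. The rise was larger in replicate 1: the list median was 0.04 without replicate 1 (23 genes) and 0.55 without replicate 2 (22 genes). In the list for anergy and agonist selection, 5 of 14 rose and 0 fell (median 0.42). They were Izumo1r (folate receptor 4; 66.8 and 36.1 CPM in members, against 18.7 and 12.1 CPM), Tox (0.89), Egr2, Pdcd1 and Nt5e, the last 3 shared with the lists above. The median of this list was 0.34 without replicate 1 and 0.48 without replicate 2, over 13 genes each.

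Slamf7 has relatives that were not used by the rule. Of 10 SLAM family and adaptor genes tested, 3 rose and 0 fell (median 0.50). Slamf6 had 296 and 183 CPM in members, against 88.4 and 75.01 CPM in other cells, the adaptor Sh2d1a (SAP) had 333 and 202 CPM, against 143 and 95.1 CPM, and the kinase Fyn rose by a log2 fold change of 0.85. Both replicates of members were above both of other cells for Slamf6 and Sh2d1a. Counts were also small among relatives of the other rule genes. Rgs9 (14 and 47 UMIs in members, against 1 and 14 UMIs in other cells) and Rgs2 (0.62) rose among 9 RGS genes, the calcium-activated potassium channel Kcnn4 (0.85) rose among 6 potassium channels, and the lamin Lmnb1 (0.57) rose among 4 intermediate filament genes, with 0 falling in the 3 lists. Their medians were -0.26, 0.29 and 0.29. The Lmnb1 rise did not pass with DESeq2, in a UMI range shared by members and other cells, or without cells above the 95th percentile. Nor did it pass with Krt18 left out of the rule.

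Among 16 cytotoxic and effector genes, 5 rose and 1 fell, around a median of -0.01. Those that rose were the granzyme Gzmb (33.1 and 41.3 CPM in members, against 8.05 and 18.97 CPM in other cells), the death ligand Fasl (34.2 and 40.04, against 8.32 and 12.3 CPM), Crtam (1.51), the cystatin Cst7 (0.98) and perforin, Prf1 (0.82). Srgn, the granule proteoglycan, fell (-0.30). Nkg7, the most abundant of the granule genes named here, had 1132 and 924 CPM in members and 1348 and 909 CPM in other cells, and did not pass. Gzmk was high in members of both libraries, at 54.8 and 29.95 CPM against 7.25 and 0.613 CPM, with ratios too unlike to pass (log2 fold change 3.94 ± 1.22, adjusted p = 0.439). Of 16 cytokines and chemokines, Ccl4 (0.66) and Tgfb1 (0.43) rose, and Ltb (-0.40), Tnf (-0.94) and Il4 (-2.34) fell (median -0.29). Without replicate 1 the median of this list was 0.13, and without replicate 2 it was -0.42, over 11 genes each. The Ccl4 rise turned to a decline when cells were thinned (-0.22) and when 3 rule genes were asked for (-0.75). Ccl5, the most abundant chemokine of the list, had 3875 and 4766 CPM in members, against 12932 and 6727 CPM in other cells, and did not pass.

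Transcription factors split. Of 25 tested, 5 rose and 4 fell (median -0.12). Id3, an inhibitor of E proteins, had 339.9 and 159 CPM in members, against 133 and 81.8 CPM in other cells (log2 fold change 1.03 ± 0.10, adjusted p = 3.73e-06). Irf8 (1.39), Zeb2 (1.20), Bach2 (1.17) and Tox also rose. Among the factors that fell were Zbtb16, the factor of innate-like T cells (0 and 10.1, against 4.32 and 26.3 CPM), Gata3 (-0.88) and Runx3 (-0.42). Tbx21, the T-box relative of Eomes, had 8.69 and 26.7 CPM in members and 20.4 and 29.4 CPM in other cells, and Tcf7 had 193 and 323 CPM in members and 189.7 and 314 CPM in other cells. Neither passed. The median of the factors was -0.10 without replicate 1 (23 genes) and -0.14 without replicate 2 (21 genes). In the type 17 list, 3 of 10 fell, Il1r1 and Tmem176b among them, and 0 rose (median -1.14). Without a replicate, 3 or 4 of these genes could be tested.

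Some receptors for cytokines and for NK ligands fell. Of 17 cytokine receptors, 8 fell and 1, Il10ra, rose (median -0.82). Ifngr1, a chain of the interferon-γ receptor, had 105 and 335 CPM in members, against 234 and 491 CPM in other cells, and Il6ra had 0.543 and 4.72 CPM, against 6.59 and 12.1 CPM. Il4ra, Il21r, Il12rb1, Il18rap, Ifngr2 and Il1r1 fell by log2 fold changes of -0.51 to -1.58. With DESeq2, 1 of the 17 fell and 1 rose. The median of the cytokine receptors was -0.58 without replicate 1 (15 genes) and -1.42 without replicate 2 (14 genes). Il7r, the interleukin-7 receptor, had 28.2 and 221 CPM in members, against 147 and 424 CPM, and did not pass (log2 fold change -1.60 ± 0.67, adjusted p = 0.528). Among 21 NK receptors and adaptors, Klra1, Klra3 (-1.31), Klrb1a (-1.83) and Tyrobp (-0.51) fell and 0 rose (median -0.85). Their median moved with the replicate: it was -0.38 over 16 genes without replicate 1 and -1.87 over 14 genes without replicate 2. Of 18 interferon response genes, 6 fell, Ifi47 (-0.56) among them, and 0 rose (median -0.37), beside 4% lower and 6.23% higher of all genes. With DESeq2, 0 of these 18 passed in either direction. The median of the 18 was -0.36 without replicate 1 and -0.40 without replicate 2.

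Genes of quiescence and lymphoid homing were divided, with 3 of 16 higher and 5 lower (median -0.21). The lymph node homing receptor Ccr7 had 113 and 250.2 CPM in members, against 66.5 and 131 CPM in other cells. Foxp1 (0.59) also rose. Igfbp4 (-2.91), Ly6c1 (-1.97), Satb1 (-0.78), the egress receptor S1pr1 (-0.59) and Dapl1 (-0.52) fell. Without replicate 1 the median of the 16 was -0.13, and without replicate 2 it was -0.34. Of 20 chemokine receptors and integrins, 4 rose, Cxcr5 (1.59), Cx3cr1 (1.87) and Itgax (2.82) among them, and Ccr9 (-1.82), Cxcr3 (-0.84), Itga1 and Itgae fell (median -0.29). The integrins Itga1 and Itgae had 0 CPM in members of replicate 1 and 5.86 and 6.02 CPM in those of replicate 2.

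More proliferation genes rose than fell, but most calls were lost when the depth of the cells was limited. Of 22 tested, 12 rose and 0 fell (median 0.86). Only 1 of 14 rose when cells were thinned to 1500 UMIs. A UMI range shared by members and other cells kept 328 of 412 and 522 of 654 members, and 1 of 18 rose. Without cells above the 95th percentile of UMIs, 1 of 18 rose. With DESeq2, 2 of the 22 rose. The rise was larger in replicate 2: the list median was 1.001 without replicate 1 and 0.37 without replicate 2, over 22 genes each. Mki67, a marker of cycling cells, had 2.17 and 23.4 CPM in members, against 1.33 and 6.02 CPM in other cells. Stmn1, a microtubule regulator, had 124 and 122 CPM in members, against 31.3 and 27.7 CPM, with a log2 fold change of 1.95 ± 0.12 (adjusted p = 2.38e-08).

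**Figure D3:**
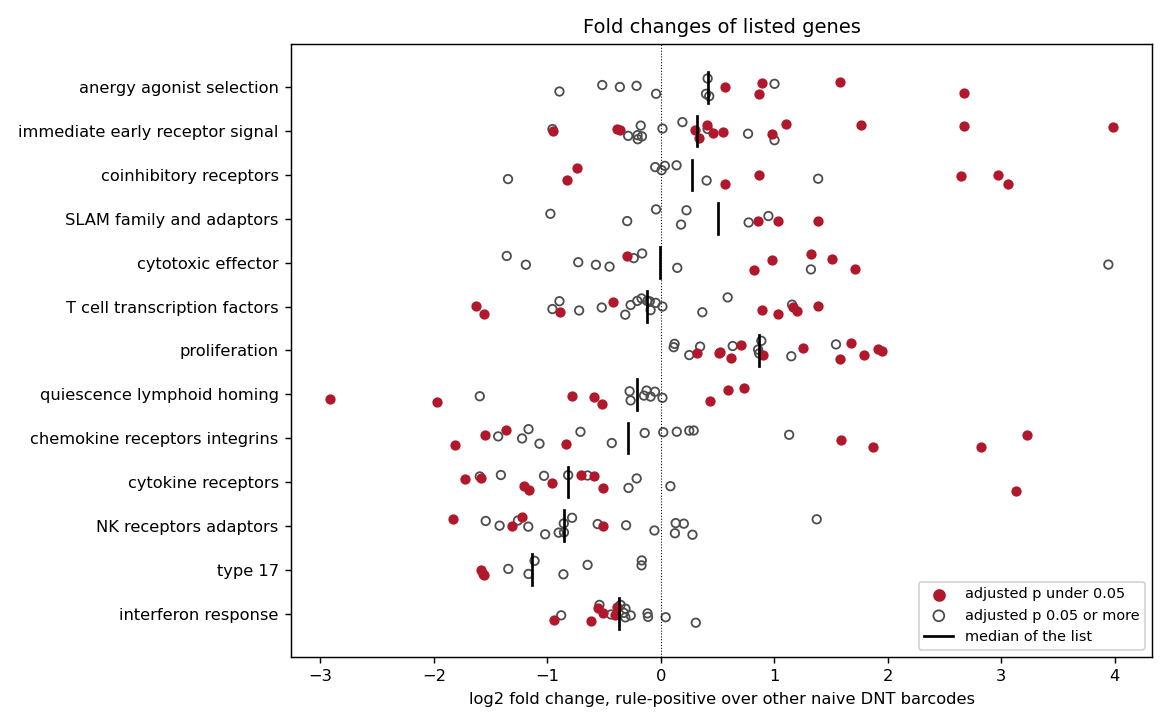
Log2 fold changes of members over other naive DNT cells for the genes of 13 lists, with 1 point per tested gene, filled where the adjusted p was under 0.05, and a bar at each list's median. The medians run from -1.14 for the type 17 list to 0.86 for the proliferation list, beside -0.03 over all genes tested.

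Core T cell genes stood at like levels in members and other cells, and Cd4 and Cd8a stayed low. Of 10 core T cell genes, Lat rose (0.72) and Cd3g (-0.48) and Thy1 (-0.49) fell, and the summed level was 4902 and 4409 CPM in members, against 4876 and 4355 CPM in other cells. Cd4 stood at 0.543 and 0.163 CPM and Cd8a at 2.17 and 0.326 CPM in members. Cd8b1, the other CD8 chain, had 57.01 and 14.3 CPM in members, against 10.4 and 4.13 CPM in other cells (log2 fold change 2.0 ± 0.20, adjusted p = 5.13e-06). The CD4 lineage factor Zbtb7b fell (-1.92). Foxp3, the regulatory T cell factor, had 0 and 0.488 CPM in members and 0.266 and 0.963 CPM in other cells, although Ctla4 of the regulatory T cell list rose.

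Markers of other cells gave the following values, and their part in the differences above was not tested. Of 5 tested B cell markers 0 passed, and their summed level was 343 and 46.7 CPM in members, against 57.7 and 65.2 CPM in other cells. The high value in replicate 1 came from MHC class II genes, of which 527 of 588 UMIs lay in 1 member cell with 2 CD3 UMIs. Pax5 had 0 UMIs in members of that replicate. Leaving out cells with 3 or more class II UMIs gave 709 higher and 469 lower genes, and leaving out cells with a UMI of Cd79b, Ms4a1, Pax5 or another B cell marker gave 584 higher and 308 lower, with Pou2af1 called in both. Of 6 myeloid markers only Cd68 rose (39.1 and 17.1 CPM in members, against 2.59 and 2.91 CPM in other cells), while Csf1r had 0.543 and 0.326 CPM in members and Itgam 0.543 and 0.651 CPM. The myeloid sum was 376 and 174 CPM in members, against 358 and 199.6 CPM in other cells.

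Of tested NK, NKT and γδ T cell markers, 11.1%, 50% and 33.3% passed, all lower in members, beside 10.2% of all genes. The NK cell list without Eomes summed to 121 and 196 CPM in members, against 415 and 289 CPM in other cells, with 1 of 9 lower and 0 higher. The NKT list, with Zbtb16, Il4 and Plac8 lower and 0 of 6 higher, summed to 104 and 229 CPM in members, against 231 and 351 CPM. Of 4 γδ T cell genes in both references, none of them a receptor gene, 3 were tested, of which 1 fell and 0 rose. Plasma cell markers had 0 of 4 called and summed to 105 and 103 CPM in members, against 33.8 and 78.7 CPM in other cells. The plasmacytoid dendritic cell list had Irf8 higher and Ccr9 lower of 4 and summed to 52.1 and 78.5 CPM in members, against 31.3 and 65.3 CPM. Red cell transcripts had 0 of 6 called, yet in replicate 2 their sum was 35.5 CPM in members, against 970.0 CPM in other cells, and in replicate 1 it was 3689 CPM in members, against 3806 CPM.

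Members were not alike among themselves, and the number of rule genes per cell showed it. In replicate 1 cells with 1, 2, 3, 4 and 5 rule genes numbered 652, 202, 136, 62 and 12, and in replicate 2 they numbered 1748, 350, 144, 109 and 51. Just outside and just inside the rule, at 1 and 2 genes, Tubb2b had 16.8 and 113 CPM in replicate 1 and 1.95 and 9.12 CPM in replicate 2. At 3, 4 and 5 genes it had 223, 169.9 and 289 CPM in replicate 1 and 90.2, 222 and 203 CPM in replicate 2. Members with exactly 2 rule genes in the deeper replicate 2 thus carried low Tubb2b, and members with 3 or more carried high levels in both replicates. Pou2af1 followed the same order in replicate 2, at 4.04, 8.52, 63.98, 174 and 216 CPM from 1 to 5 genes. Il7r ran the other way there, at 417, 323, 185, 45.3 and 31.9 CPM. Cells with more rule genes were not always deeper: median UMIs at 2, 3, 4 and 5 genes were 3629.5, 4027, 4721.5 and 8028.5 in replicate 1 and 8671.5, 6947, 8353 and 9206 in replicate 2. With 3 or more rule genes asked for, 5.29% and 4.66% of naive cells were members, and 1253 genes were higher and 1263 lower.

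**Figure D4:**
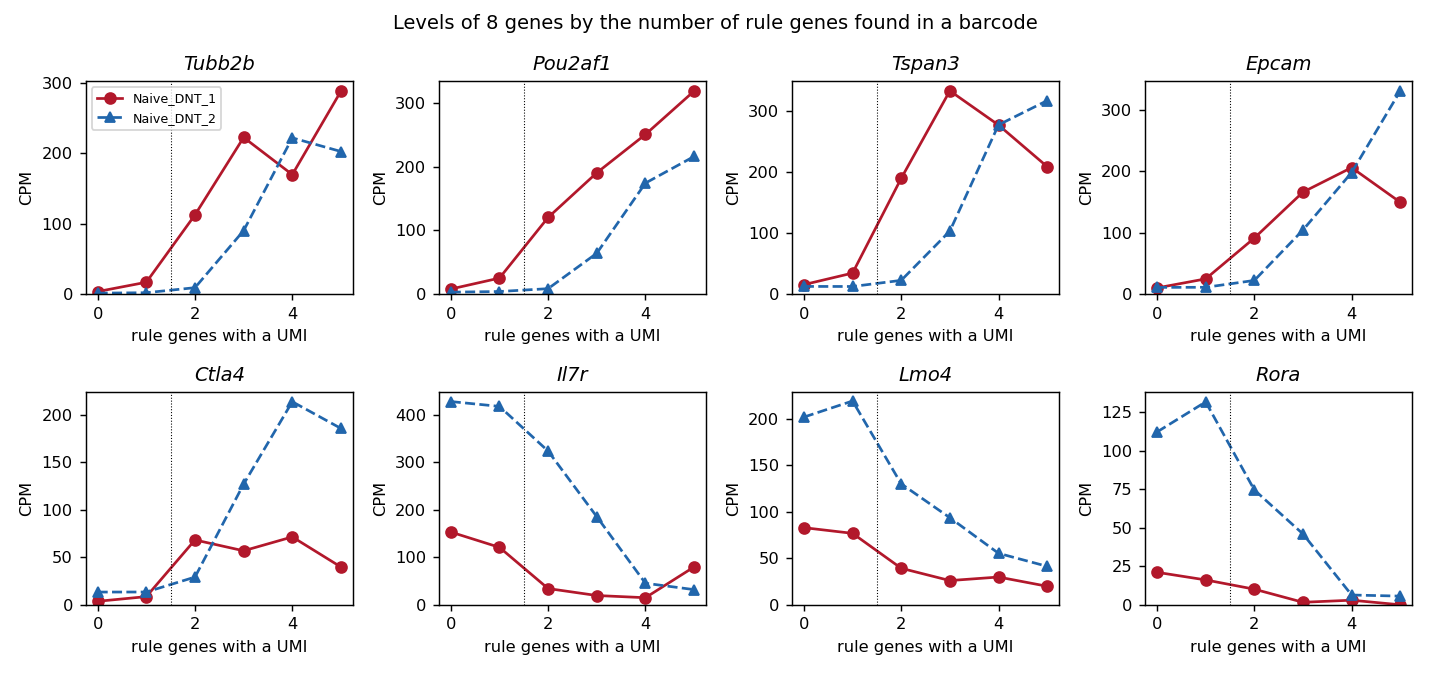
CPM of 8 genes in naive DNT cells with 0 to 5 rule genes, 1 line per replicate, with the edge of the rule dotted. Tubb2b at 2 rule genes stands at 113 CPM in replicate 1 and 9.12 CPM in replicate 2, and at 4 genes at 169.9 and 222 CPM.

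Cells with Kcnc1 as their one rule gene fell outside the rule and had another profile. There were 83 of them in replicate 1 and 361 in replicate 2. Genes that were low in members were high in these cells: Pxdc1 had 155 and 443 CPM, Lmo4 had 357 and 739 CPM and Actn2 had 132 and 184 CPM. In cells with 0 rule genes Pxdc1 had 29.98 and 71.5 CPM, Lmo4 had 82.8 and 202 CPM and Actn2 had 23.2 and 34.5 CPM. Tubb2b stayed low in the cells with Kcnc1 alone, at 20.5 and 2.84 CPM. These cells are part of the set the members were compared with. Against cells with 0 rule genes only, 689 genes were higher and 384 lower, and 9 of the 10 largest declines still passed.

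Receptor segments could be read in replicate 2 alone, since the kit v2 reference lists no T cell receptor genes among those used. Trac was found in 96.6% of members and 94.1% of other cells. Members held 156 Trbv UMIs over 20 of 35 segments, in 135 of 654 cells, and 180 Trav UMIs over 46 of 128 segments. Trbv12-2 led in both classes, with 28.2% of Trbv UMIs in members and 27.9% in other cells. Trav shares differed more, as for Trav3-4 (5% of Trav UMIs in members, 9 UMIs, against 0.473%, 6 UMIs, in other cells) and Trav8d-2 (5.56%, 10 UMIs, against 1.10%, 14 UMIs), both named after their values were seen and not tested. Trav11, the segment of the invariant NKT receptor, had 1 UMI (0.556% of Trav UMIs) in members, against 79 UMIs (6.23%) in other cells. Reads were taken at the 3′ end, so V segments were seen in few cells.

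The same rule was applied to TCRab and CD8 cells, libraries that the rule was not written for, with 29 and 81 cells that met it. The TCRab sort was not divided by CD4 or CD8, so it can hold double-negative, CD4 and CD8 T cells. These were not told apart in either class of TCRab cells. CD4 had 9 such cells, under the 20 asked for, and was left out. In the edgeR test with library as a block, 435 of 9786 genes were higher in rule-positive TCRab and CD8 cells (4.45%) and 479 were lower (4.89%), 9.34% in either direction. These cells were deeper than their neighbours, at medians of 5350 and 7138 UMIs, against 3982 and 4877 UMIs in other TCRab and CD8 cells, and 27.6% and 38.3% of them lay above the 95th percentile of their library. Without cells above that percentile 66 genes were higher and 66 lower, and the part of depth or of doublets in the larger counts was not tested further. Of the 677 genes higher in naive DNT members, 550 were tested here and 134 were also higher (24.4% of those tested, and 30.8% of the genes higher in TCRab and CD8), while 9 were lower. Of the 435 genes lower in naive members, 395 were tested and 149 were also lower (37.7%, and 31.1% of the genes lower in TCRab and CD8), while 6 were higher.

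Several leading genes of naive members were also high in these cells. Tubb2b had 107 CPM in rule-positive TCRab cells and 45.6 CPM in rule-positive CD8 cells, against 4.37 and 1.46 CPM in the other cells of the 2 libraries (log2 fold change 4.50 ± 0.44, adjusted p = 2.35e-22). Pou2af1 had 93.5 and 80.9 CPM, against 4.59 and 4.72 CPM (log2 fold change 3.92 ± 0.31, adjusted p = 8.24e-33), and Epcam had 44.5 and 19.1 CPM, against 3.81 and 1.68 CPM (log2 fold change 3.25). Cd200 (3.05), Ddc (2.76), Lag3 (2.36), Id3 (1.09) and Sh2d1a (1.04) also rose. Proliferation genes rose in 22 of 22, and 13 of 16 quiescence and homing genes fell, with 1 higher.

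The effect in naive DNT minus that in TCRab and CD8 was tested as a difference in 1 model of the 4 libraries. It was positive for 205 of 10180 genes (2.01%) and negative for 189 (1.86%), 3.87% in either direction, and without TCRab the counts were 19 and 25. Cd8b1 was higher in naive members, as given above, and lower in rule-positive TCRab and CD8 cells (409.7 and 749 CPM, against 502 and 1323 CPM), a difference of 2.87 ± 0.18 (adjusted p = 9.73e-53). The sialyltransferase gene St8sia6 had 28.8 and 19.7 CPM in naive members, against 1.93 and 0.963 CPM in other naive cells, and differed by 4.21 ± 0.69. Its direction was not the same in TCRab and CD8. Rule-positive cells had 8.91 CPM, against 16.0 CPM, in TCRab and 2.94 CPM, against 0.387 CPM, in CD8, on 2 and 2 UMIs. The endoplasmic reticulum autophagy receptor gene Fam134b had 216 and 338 CPM in naive members, against 36.3 and 72.3 CPM, and differed by 2.98 ± 0.26. The effects on Tspan3, Ctla4 and Il10ra were larger in naive DNT, with differences of 2.23, 2.06 and 2.19. In the other direction, Gzmb rose more in TCRab and CD8 (174 and 86.8 CPM in rule-positive cells, against 9.86 and 9.02 CPM), a difference of -2.03 ± 0.28, and Hk2 and Lgals3 rose there and fell in naive members. For Tubb2b, Pou2af1, Epcam and Lag3 the difference did not pass (adjusted p = 0.382, 0.922, 0.973 and 0.473), which does not show that the effects were equal.

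**Figure D5:**
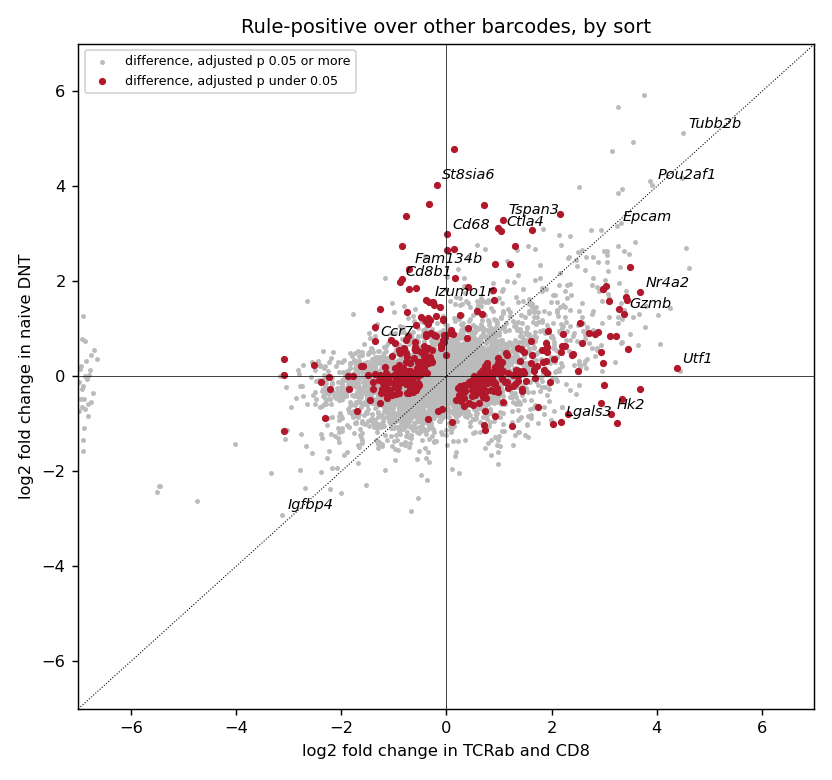
Log2 fold change of rule-positive over other cells in naive DNT (vertical) against the same in TCRab and CD8 (horizontal), 1 point for each of 9511 genes within 7 log2 units on the horizontal axis, with named genes marked. Pou2af1 lies at 4.04 and 3.92, and Cd8b1 at 2.0 and -0.89.

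After 3 days of stimulation the leading genes of naive members stood at mixed levels over all kept activated DNT cells. Tubb2b had 4.67 and 3.99 CPM, Pou2af1 14.5 and 9.31 CPM, Itgad 0.0875 and 0 CPM and Ctla4 11.1 and 8.02 CPM in activated replicates 1 and 2. Alcam, by contrast, had 26.3 and 48.2 CPM, beside 41.8 and 33.5 CPM in naive members, and Lag3 had 38.6 and 56.4 CPM, beside 64.6 and 43.95 CPM in naive members. Gzmb reached 2111 and 3287 CPM in activated cells, far above naive members at 33.1 and 41.3 CPM. Among the rule genes, Rgs16 was common and Kcnc1 was rare after activation, with a UMI in 0.727% and 3.92% of activated cells. These are levels over whole libraries of another state and were not tested against members.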

How the data were processed

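The deposited matrices hold raw UMI counts per gene and barcode, without normalization. Per the submitters' processing notes the authors used Cell Ranger 2.1.0 and 3.0.1 with mm10 (GRCm38). Per the labels, 5 libraries used kit v2 and the others kit v3. The 27514 gene IDs shared by the 2 references (27998 and 31053 genes) were used, and 0.400% to 0.597% of UMIs lay outside them. Members and gene lists were chosen with earlier results of these data known. The filters and the rule are given in the report. The named genes were, by rule, the 5 rule genes, the 15 largest rises and 10 largest declines that passed and reached 20 CPM in both libraries of the higher class, list members that passed with a few that define each list, and the 5 largest differences between sorts in each direction.

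UMIs were summed per library and class (libraries with at least 20 rule-positive cells) and tested with edgeR 4.0.16 (filterByExpr, TMM, robust quasi-likelihood F test, library as a block, Benjamini-Hochberg adjusted p under 0.05) in R 4.3.3. The naive fit and the TCRab and CD8 fit each had 1 residual degree of freedom, and the difference had 2. Both sums of a pair come from 1 library, which is where the pairing comes from. A p-value measures only the spread between these libraries. The joint fit and the fits without a naive replicate also held TCRab and CD8, in the gene filter too. With 1 naive library left, the spread came from TCRab against CD8 alone, so list medians are given without counts. Fits without TCRab or without CD8 took their spread from the naive libraries. CPM was computed over shared genes, and fitted fold changes carry the scaling factors, so both can differ slightly. DESeq2 1.42.0 and limma 3.58.1 were also used, with Python 3.11.15 (pandas 2.3.3, matplotlib 3.10.9, SciPy 1.17.1, NumPy 2.4.6). No doublet caller was run. Some named or listed genes are not reported here, but count in the totals of tests and lists. Thinning drew 1500 UMIs per cell. Intervals are exact Clopper-Pearson at 95% and cover counting error only. On data simulated for the naive comparison with 10618 genes, the share of changed genes recovered was 26% at 1.5-fold, 52% at 2-fold, 89.6% at 4-fold and 95.8% at 8-fold. False calls numbered 4. Alternatives were another scaling (DESeq2's size factors), DESeq2, no filter, depth limits, stricter or shortened rules, no block and left-out libraries. Those without cells that hold B cell or class II UMIs, the left-out libraries and the shares without Rgs16 or Eomes were chosen after seeing the data. Gene coordinates are from GENCODE vM21 and promoters from RefSeq, both on GRCm38.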

Additional observations from a re-analysis of the deposited data

Results flagged for a closer look

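The effect of the rule (rule-positive over other cells) differed between naive DNT and the TCRab and CD8 libraries for 37 of the named or listed genes reported here by the test of the difference itself (edgeR, adjusted p under 0.05), 20 with a positive and 17 with a negative difference. All values here are the log2 effect in naive DNT minus that in TCRab and CD8. Genes with a more positive effect in naive DNT were St8sia6 (4.21), Crim1 (3.13), Cd68 (3.00), Fam134b (2.98), Cd8b1 (2.87), Tspan3 (2.23), Il10ra (2.19), Ccr7 (2.1), Ctla4 (2.06), Izumo1r (1.91), Kcnn4 (1.06), Slamf6 (0.81) and Lat (0.78). On the same side were also Fos (1.16), Foxp1 (0.94), Dusp2 (0.83), Jun (0.74), Ifi47 (0.70), Ltb (0.66) and Jund (0.61).

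Genes with a more negative effect in naive DNT included Mcm7 (-0.94), Lmnb1 (-1.24), Mcm5 (-1.28), Tyms (-1.31), Mcm6 (-1.39), Rrm2 (-1.47), Hmgb2 (-1.56) and Mki67 (-1.76). The others on that side were Tnfrsf9 (-1.13), Cxcr3 (-1.74), Nr4a2 (-1.87), Gzmb (-2.03), Lgals3 (-3.12), Klra9 (-3.15), Hk2 (-3.92), Utf1 (-4.20) and Hmgn3 (-5.39). Several large differences rest on few UMIs in rule-positive TCRab and CD8 cells: Hmgn3 on 5 and 0, Klra9 on 0 and 7, Hk2 on 3 and 9 and Utf1 on 2 and 14. Hmgn3 had 1 and 3 UMIs in naive members. On the positive side, Crim1 had 0 and 1, Cd68 0 and 3 and St8sia6 2 and 2 UMIs in rule-positive TCRab and CD8 cells. Il10ra had 4 and 4 and Ctla4 1 and 7 UMIs there. Rule-positive TCRab and CD8 cells were deeper than other cells of their libraries, and with cells above the 95th percentile of UMIs left out 33 genes passed on the positive and 25 on the negative side, over all genes tested. The part of depth in these differences was not tested further.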

How the results depend on the processing

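With both naive libraries in the fit, the 15 largest rises in naive members passed under all alternatives but a few. The exceptions were the fit without the block (0), the rule without Slamf7 (12) or without Rgs16 (14), and the joint fit, where 14 could be fitted. The count of called genes was 1112. It fell to 499 with DESeq2 and to 619 with members and other cells limited to a shared UMI range, rose to 2516 with 3 rule genes, to 2256 without Slamf7, 2083 without Eomes and 1821 without Kcnc1 in the rule, and was 431 to 828 without a replicate. Without the replicate block it was 0. In TCRab and CD8 it was 914, against 314 with DESeq2, 292 in the UMI range, 132 without deep cells, 598 without cells holding B cell UMIs, 515 without Rgs16 in the rule and 266 to 617 without a library. The difference had 394 calls, against 83, 134, 58, 250 and 203 under the same settings in that order up to Rgs16, 171 to 260 without a naive replicate, 44 without TCRab and 307 without CD8.
Depth limits the share of cells that meet the rule. In the order naive DNT 1 and 2, activated DNT 1 and 2, CD8, CD4, TCRab, it was 4.96%, 3.05%, 2.91%, 6.39%, 0.216%, 0.0603% and 0.189% after thinning and 5.29%, 4.66%, 7.94%, 10.1%, 0.151%, 0.0599% and 0.117% with 3 rule genes. Without Rgs16 it was 8.64%, 10.0112% and 12.2% in naive DNT 2 and the activated libraries, and after thinning 4.25%, 2.34%, 0.391%, 0.962%, 0.216%, 0.0402% and 0.165% in all 7. Without Eomes it was 6.65%, 6.25%, 22.4%, 24.6%, 0.323%, 0.0799% and 0.188%, and after thinning 2.87%, 1.81%, 1.12%, 3.78%, 0.0432%, 0.0402% and 0.0945%.
Signs turned for Ccl4 (-0.22 thinned, -0.75 with 3 rule genes, -0.92 without Slamf7 and -1.26 without Eomes in the rule), Rrm2 (-0.39 thinned) and Mcm5 (-0.0076 in the UMI range, -0.0015 without deep cells), and for the differences of Klra9 (6.18 without CD8), Mcm7 (0.074 in the UMI range, 0.40 without deep cells), Lmnb1 (0.37), Tyms (0.25) and Rrm2 (8.19), the last 3 without deep cells. The causes were not tested. For TCRab and CD8 and for the difference, thinning, 3 rule genes and rules without Slamf7, Eomes or Kcnc1 left fewer than 2 libraries with 20 rule-positive cells and were not run, and leaving out CD4 changes nothing, as it was not in the fit.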

Other observations

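After thinning to 1500 UMIs, rule genes still met in the same naive cells. Eomes was found in 32.5% and 29.1% of cells with Slamf7, against 6.10% and 4.96% of cells without it, in naive DNT replicates 1 and 2. Slamf7 was found in 47.7% and 43.5% of the 88 and 46 cells with Krt18, against 6.04% and 4.73% of cells without Krt18. These shares describe genes that the rule used and carry no test.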
